A study of Mus musculus with 12 samples.

Results

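The genes described here are YAP target genes and genes of the Hippo pathway. They are the targets Ctgf, Cyr61 and Ankrd1, the angiomotins Amot, Amotl1 and Amotl2, the kinase Lats2, the coactivator Yap1, and its DNA-binding partners Tead1 and Tead4. They were taken by symbol, with no measured value in the rule, though with earlier results of these data known. All 10 were found among the 23412 genes counted. Bulk RNA-Seq gave 12 libraries of v6.5 mouse embryonic stem cells (mESCs), a male line grown on gelatin, with 3 biological replicates in each of 4 groups. The groups were WT, Hmgn1-/-, Hmgn2-/- and Hmgn1-/-Hmgn2-/- mESCs, and HMGN1 and HMGN2 are small proteins that bind nucleosomes. In Hmgn1-/- mESCs both copies of Hmgn1 lack 1 base of exon 3, and in Hmgn2-/- mESCs both copies of Hmgn2 carry 1 extra base in exon 4. The line without both proteins came from the Hmgn2-/- line, through a further edit of Hmgn1. Library totals in replicates 1 to 3 were 31448468, 17614490 and 28524108 counts for WT and 25953244, 21059862 and 21993042 for Hmgn1-/- mESCs. They were 25908890, 26486535 and 17337908 for Hmgn2-/- and 31005479, 22151507 and 26410485 for Hmgn1-/-Hmgn2-/- mESCs. Below, values given in sets of 3 are those of replicates 1, 2 and 3 in that order.

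The Hippo pathway is a kinase cascade in which MST kinases activate LATS kinases, which phosphorylate the coactivators YAP and TAZ and hold them in the cytoplasm. Unphosphorylated YAP enters the nucleus and works with TEAD transcription factors at genes such as Ctgf, Cyr61 and Ankrd1, while Lats2 and Amotl2 are both regulators of the pathway and targets of YAP. In the early mouse embryo the pathway helps to set trophectoderm apart from the inner cell mass, from which embryonic stem cells are derived.

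The edited genes were looked at first, to check the labels. Levels are given as TMM-scaled CPM, counts brought to a common library total with factors from the trimmed mean of M values, with no correction for gene length. Hmgn1 had 662, 599.8 and 614 in WT and 138, 139 and 141 in Hmgn1-/- mESCs. Levels were 545, 556 and 639.7 in Hmgn2-/- and 21.5, 19.9 and 21.4 in Hmgn1-/-Hmgn2-/- mESCs. Every library with an edited Hmgn1 was below every library without, and the double knockout was the lowest. Hmgn2 had 137, 123 and 119.6 in WT and 105, 113 and 109 in Hmgn1-/- mESCs. The Hmgn2-/- libraries had 50.7, 54.5 and 53.7, and the Hmgn1-/-Hmgn2-/- libraries 53.8, 50.5 and 54.2. The 6 libraries with an edited Hmgn2 were all below the other 6, so labels and counts went together for both genes. Over all genes, Hmgn2-/- replicate 3 stood apart from its group: the chi-square of counts per degree of freedom, 1 for sampling noise alone, was 34.3 and 19.5 against replicates 1 and 2, and 3.28 to 11.5 for all other pairs of replicates.

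Each knockout line is 1 clone, and the double knockout descends from the Hmgn2-/- line. The p-values therefore measure the spread between cultures of a line, not between independent lines. The knockout lines were transfected and grown from single cells, steps that the study describes for the edited lines only. The part of these steps in changes shared by all knockouts was not tested. All 3 comparisons of a knockout with WT use the same WT libraries. A gene is called past the threshold when its adjusted p was under 0.01 and its log2 fold change (log2 FC) was at least 1 in size. The test was the quasi-likelihood test of edgeR, adjusted by Benjamini and Hochberg's method, over all genes with enough counts, and "the edgeR test" below means this test. An adjusted p that misses the threshold does not show that there was no difference, so 95% intervals are given.

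Levels of different genes are compared per length, as mean TMM-scaled CPM per kb of exon in WT mESCs with its SD (n = 3). Cyr61 at 27.4 ± 6.44, Ctgf at 22.9 ± 7.95, Yap1 at 20.4 ± 0.203 and Amotl2 at 19.9 ± 4.18 per kb were the highest. Tead1 (7.43 ± 0.111), Tead4 (7.36 ± 1.31) and Amotl1 (4.30 ± 0.812) followed on this scale. Amot (1.05 ± 0.238) and Lats2 (0.817 ± 0.223) were lower per kb, and Ankrd1 was the lowest (0.319 ± 0.116).

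Ctgf, a secreted matricellular protein now named Ccn2, lies at chr10:24595442-24598683 on the plus strand of GRCm38.p6. Its TMM-scaled CPM was 39.3, 79.7 and 77.7 in WT and 23.6, 26.7 and 28.6 in Hmgn1-/- mESCs. It was 27.0, 28.6 and 28.2 in Hmgn2-/- and 22.2, 25.5 and 27.3 in Hmgn1-/-Hmgn2-/- mESCs. All knockout libraries were below all WT libraries, and WT replicate 1 stood well under the other WT libraries. Ctgf fell to 40.4% of WT in Hmgn1-/- mESCs in the edgeR test (log2 FC −1.31, standard error 0.20, adjusted p = 0.00022, 3 of 3 libraries lower). In Hmgn2-/- mESCs it fell to 43.0% (log2 FC −1.22, standard error 0.21, adjusted p = 0.00243, 3 of 3 lower, edgeR; range of adjusted p over all alternatives 9.39e-08 to 0.014). It fell to 38.4% in Hmgn1-/-Hmgn2-/- mESCs (log2 FC −1.38, standard error 0.20, adjusted p = 0.000145, 3 of 3 lower, edgeR). The call in Hmgn2-/- mESCs was lost without WT replicate 2 (−1.06), WT replicate 3 (−1.08) or Hmgn2-/- replicate 2 (−1.23). An annotated antisense transcript, Gm15270, shares 23.2% of the exon bases of Ctgf and is not in the count table. Strand use in counting is not stated, so the counts of Ctgf are uncertain to that extent.

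Cyr61, another secreted matricellular protein, now named Ccn1, lies at chr3:145646971-145649985 on the minus strand. In TMM-scaled CPM it had 40.9, 58.8 and 66.2 in WT and 17.1, 19.4 and 22.3 in Hmgn1-/- mESCs. With Hmgn2 edited it was 18.8, 19.5 and 24.7, and with both genes edited 23.6, 23.1 and 31.4. Here too the knockout libraries lay below all WT libraries, with WT replicate 1 the lowest of WT and double knockout replicate 3 the highest of the knockouts. Its level fell to 35.6% of WT in Hmgn1-/- mESCs in the edgeR test (log2 FC −1.49, standard error 0.15, adjusted p = 6.81e-06, 3 of 3 libraries lower). It fell to 38.1% in Hmgn2-/- mESCs (log2 FC −1.39, standard error 0.17, adjusted p = 0.00025, 3 of 3 lower, edgeR). The fall in Hmgn1-/-Hmgn2-/- mESCs was to 47.4% (log2 FC −1.08, standard error 0.15, adjusted p = 0.000141, 3 of 3 lower, edgeR). Without WT replicate 3 the fall in the double knockout came under the fold limit, at a log2 FC of −0.93.

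Ankrd1, an ankyrin repeat protein of muscle and a transcriptional cofactor, lies at chr19:36111965-36119844 on the minus strand and was near the limit of detection. Its level in TMM-scaled CPM was 0.625, 0.848 and 1.28 in WT and 0.115, 0.286 and 0.321 in Hmgn1-/- mESCs. Hmgn2-/- mESCs had 0, 0.114 and 0.416, and Hmgn1-/-Hmgn2-/- mESCs 0.384, 0.271 and 0.266. The WT libraries were all higher than the knockout libraries, and the 0 in Hmgn2-/- replicate 1 allows up to 0.115 CPM, the level of 3 counts. Summed over replicates there were 72 counts in WT and 16 counts in Hmgn1-/- mESCs, or 25.3% of the WT level (95% exact interval 13.8% to 44.0%). There were 10 counts in Hmgn2-/- mESCs, or 15.7% of the WT level (95% exact interval 7.23% to 30.6%), and 25 counts in Hmgn1-/-Hmgn2-/- mESCs, or 34.2% of the WT level (95% exact interval 20.8% to 54.5%). These intervals, and the level allowed by a count of 0, cover counting error only. Ankrd1 passed the filter on low counts only through WT, the group where it was high. It was past the threshold of the edgeR test in Hmgn1-/- mESCs (log2 FC −1.95, standard error 0.46, adjusted p = 0.00567, 3 of 3 libraries lower, range of adjusted p over all alternatives 0.000856 to 0.0405). It was also past it in Hmgn1-/-Hmgn2-/- mESCs (log2 FC −1.54, standard error 0.40, adjusted p = 0.00955, 3 of 3 lower, edgeR, range 0.00231 to 0.0748). In Hmgn2-/- mESCs it was not (log2 FC −2.59, 95% interval −4.08 to −1.10, adjusted p = 0.0207, edgeR, range 0.00297 to 0.0957). With no filter its log2 FC was −1.94, −2.58 and −1.54 in Hmgn1-/-, Hmgn2-/- and Hmgn1-/-Hmgn2-/- mESCs, past the threshold in each.

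Each of these calls of Ankrd1 turned with the processing. That in Hmgn1-/- mESCs was lost with DESeq2 (log2 FC −1.95) and in a fit of all 12 libraries (−1.95). It was also lost without WT replicate 2 (−1.99), WT replicate 3 (−1.59), Hmgn1-/- replicate 1 (−1.58), replicate 2 (−2.10) or replicate 3 (−2.23). That in Hmgn1-/-Hmgn2-/- mESCs was lost with DESeq2 (−1.57), in a fit of all 12 libraries (−1.55) and with replicate number as a blocking term (−1.50, adjusted p = 0.0102 in edgeR, range 0.00231 to 0.0748). The same call was lost without WT replicate 2 (−1.59), WT replicate 3 (−1.19), double knockout replicate 1 (−1.75), replicate 2 (−1.47) or replicate 3 (−1.44). In Hmgn2-/- mESCs a call was gained with DESeq2 (−2.52), with no filter on low counts (−2.58), in a fit of all 12 libraries (−2.60) and without Hmgn2-/- replicate 3 (−3.89). The log2 FC of Ankrd1 there ran from −3.89 to −1.93 with 1 library left out.

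The bases before a RefSeq start of Cyr61, Ankrd1, Amotl2 and Yap1 are shown because these windows hold a TEAD motif. Each is the 250 bases before a start given by RefSeq on GRCm38.p6, read 5′ to 3′ in the direction of the gene. That start is the one in the table of upstream bases, and the RefSeq gene spans given here reach further upstream for some genes. The Amotl2 window lies inside the Amotl2 span and the Yap1 window overlaps the end of the Yap1 span. The windows lie at chr3:145649986-145650235 (minus strand, Cyr61), chr19:36119845-36120094 (minus, Ankrd1), chr9:102717554-102717803 (plus, Amotl2) and chr9:8004597-8004846 (minus, Yap1). Capitals mark the TEAD motif GGAATG, or CATTCC where it is on the other strand.
Cyr61: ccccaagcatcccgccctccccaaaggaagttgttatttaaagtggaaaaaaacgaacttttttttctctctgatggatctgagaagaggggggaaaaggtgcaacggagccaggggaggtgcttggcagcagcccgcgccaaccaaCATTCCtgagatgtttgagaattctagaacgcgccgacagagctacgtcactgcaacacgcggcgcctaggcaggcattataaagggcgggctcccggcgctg
Ankrd1: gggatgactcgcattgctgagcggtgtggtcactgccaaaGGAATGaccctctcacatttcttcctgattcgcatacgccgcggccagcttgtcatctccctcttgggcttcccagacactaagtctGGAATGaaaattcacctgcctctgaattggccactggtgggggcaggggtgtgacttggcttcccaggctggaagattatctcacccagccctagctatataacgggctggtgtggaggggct
Amotl2: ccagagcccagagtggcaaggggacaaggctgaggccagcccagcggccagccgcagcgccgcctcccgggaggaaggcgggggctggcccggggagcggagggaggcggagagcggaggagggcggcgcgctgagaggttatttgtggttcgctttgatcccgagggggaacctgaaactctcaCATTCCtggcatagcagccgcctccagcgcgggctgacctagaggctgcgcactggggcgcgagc
Yap1: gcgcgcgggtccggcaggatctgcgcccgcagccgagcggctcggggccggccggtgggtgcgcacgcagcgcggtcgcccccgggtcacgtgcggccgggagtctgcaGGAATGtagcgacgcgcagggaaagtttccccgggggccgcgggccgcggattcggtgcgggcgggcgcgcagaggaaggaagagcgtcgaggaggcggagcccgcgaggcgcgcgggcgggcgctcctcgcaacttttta
The match of Cyr61 lay 98 to 103 bases before that start, those of Ankrd1 205 to 210 and 118 to 123, that of Amotl2 60 to 65 and that of Yap1 136 to 141. Of the 10 genes 7 had an upstream window, and 4 of the 7 held the motif, while Amot, Amotl1 and Lats2 did not. Counted by window, 4 of the 8 windows of these genes held it (50%), beside 4153 of all 32851 windows of this length (12.6%). The CArG box of serum response factor was in 0 of the 8 windows of these genes, and in 482 of all windows (1.47%). The windows of Amot and Amotl1 and both of Lats2 also lie in or reach into the gene spans. A match describes letters only. Ctgf, Tead1 and Tead4 were not in the table.

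**Figure D1:**
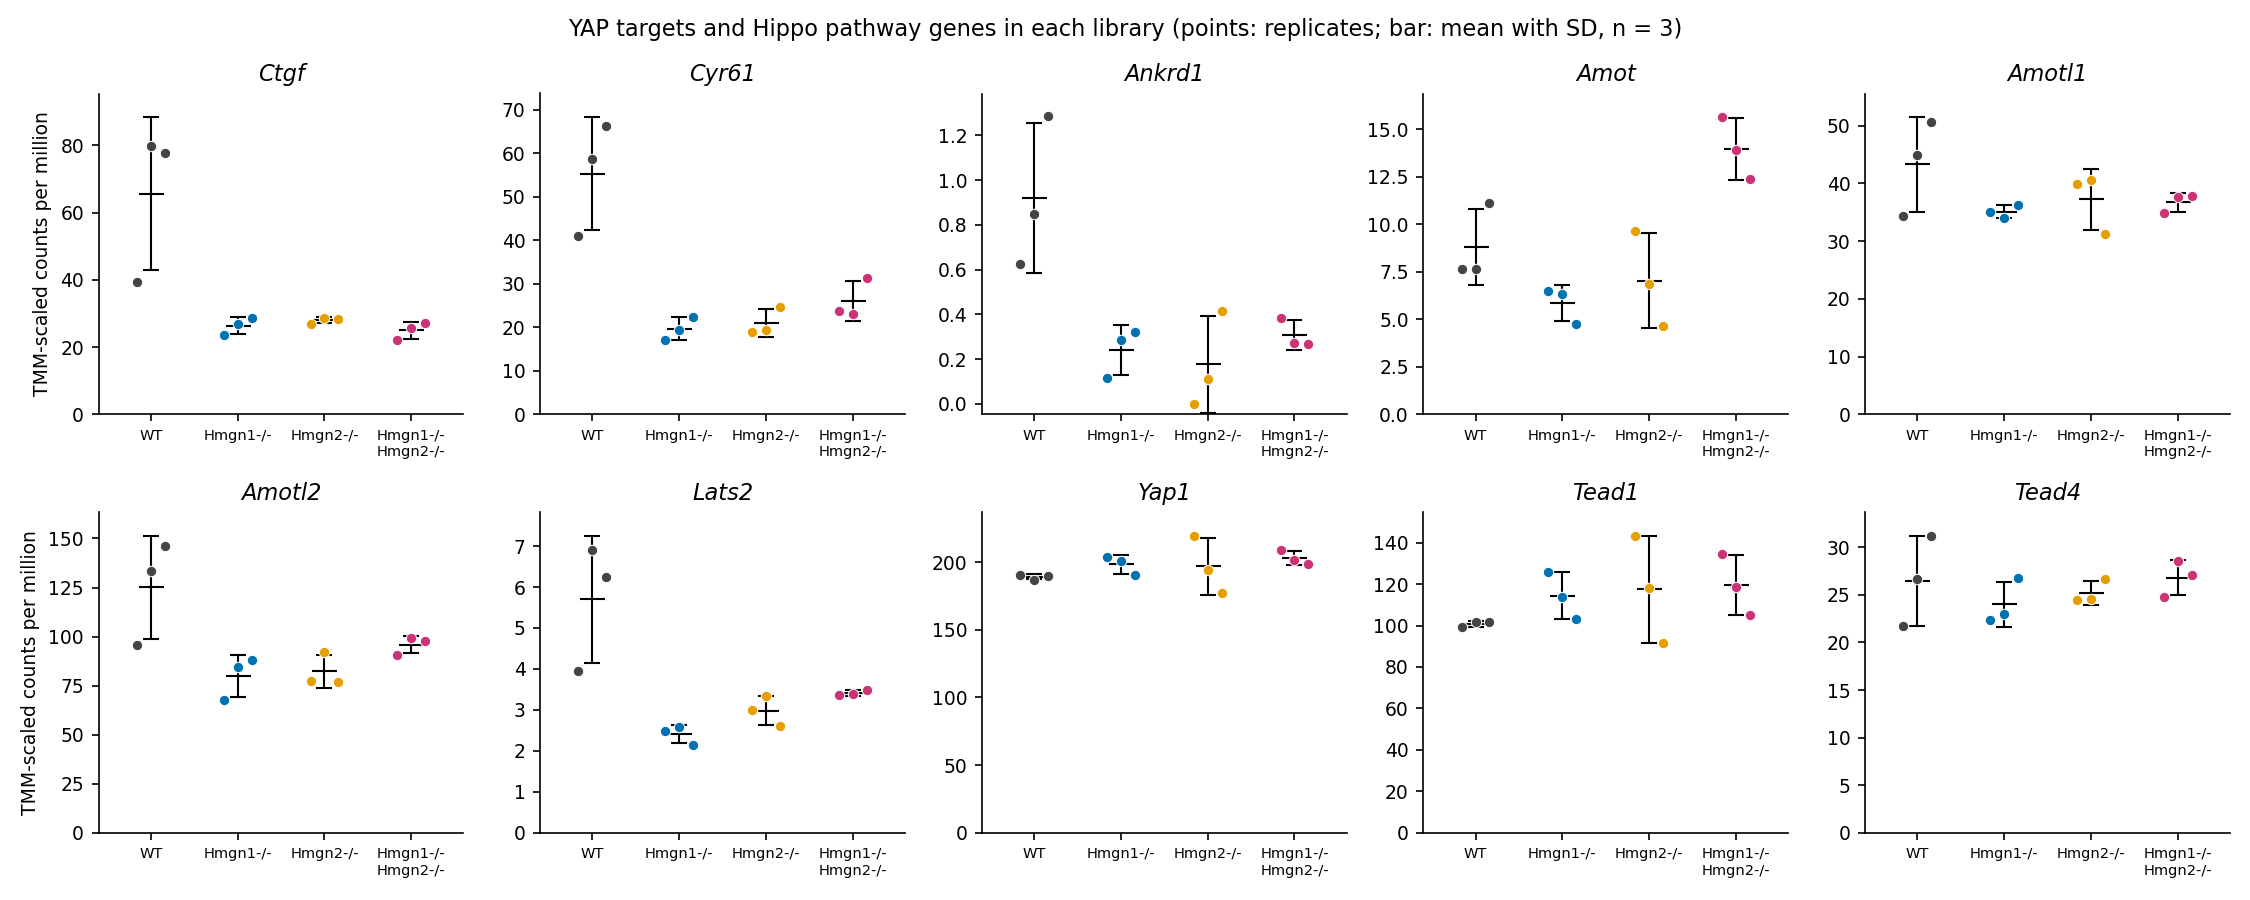
Level of each gene in every library of the 4 groups, as TMM-scaled CPM; points are replicates, and bars are the mean with its SD. For Cyr61 the WT libraries sit at 40.9 to 66.2 and all knockout libraries at or below 31.4, whereas Yap1 runs from 177 to 219.5 over all libraries.

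The angiomotins are scaffold proteins of cell junctions and actin fibres that bind YAP and hold it outside the nucleus. Amot, on chromosome X, had a TMM-scaled CPM of 7.66, 7.63 and 11.1 in WT and 6.48, 6.35 and 4.77 in Hmgn1-/- mESCs. Levels were 9.63, 6.85 and 4.64 in Hmgn2-/- and 15.6, 13.9 and 12.4 in Hmgn1-/-Hmgn2-/- mESCs. The double knockout libraries were above all others, the Hmgn1-/- libraries below all WT libraries, and the Hmgn2-/- libraries overlapped WT. No difference of Amot from WT was past the threshold of the edgeR test. Its log2 FC was −0.59 in Hmgn1-/- (95% interval −0.96 to −0.21) and −0.30 in Hmgn2-/- mESCs (−0.82 to 0.23). The value in Hmgn1-/-Hmgn2-/- mESCs was 0.66 (0.34 to 0.99, adjusted p = 0.00427, edgeR, 3 of 3 libraries higher, range of adjusted p over all alternatives 0.000165 to 0.0277), past the limit on p and under the fold limit.

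Amotl2 (chr9:102717091-102733418, plus strand) is an angiomotin that is itself a YAP target. It had, in TMM-scaled CPM, 95.7, 133 and 146 in WT and 67.9, 84.3 and 88.0 in Hmgn1-/- mESCs. The Hmgn2-/- libraries had 77.5, 92.1 and 77.1, and the Hmgn1-/-Hmgn2-/- libraries 90.8, 99.2 and 97.8. Both single knockouts lay below all WT libraries, and the double knockout overlapped WT replicate 1. Its log2 FC was −0.64 in Hmgn1-/- mESCs (95% interval −0.91 to −0.36, adjusted p = 0.00199, 3 of 3 libraries lower) in the edgeR test, under the fold limit. It was −0.59 in Hmgn2-/- (−0.90 to −0.29) and −0.38 in Hmgn1-/-Hmgn2-/- mESCs (−0.62 to −0.13), not past the threshold. Amotl1, on chromosome 9, had a TMM-scaled CPM of 34.4, 44.8 and 50.5 in WT and 35.0, 33.9 and 36.3 in Hmgn1-/- mESCs. It was 39.9, 40.5 and 31.2 in Hmgn2-/- and 34.9, 37.5 and 37.9 in Hmgn1-/-Hmgn2-/- mESCs. Every knockout overlapped WT. The log2 FC of Amotl1 was −0.30 (−0.54 to −0.06), −0.20 (−0.52 to 0.12) and −0.23 (−0.47 to 0.01) in Hmgn1-/-, Hmgn2-/- and Hmgn1-/-Hmgn2-/- mESCs, none past the threshold.

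Lats2 (chr14:57689662-57746212, minus strand), the kinase that phosphorylates YAP, had a TMM-scaled CPM of 3.94, 6.90 and 6.25 in WT and 2.49, 2.58 and 2.15 in Hmgn1-/- mESCs. With Hmgn2 edited it was 2.99, 3.33 and 2.62, and with both genes edited 3.36, 3.39 and 3.49. All WT libraries were above all knockout libraries, though WT replicate 1 came close to the double knockout. Lats2 fell to 43.0% of WT in Hmgn1-/- mESCs in the edgeR test (log2 FC −1.22, standard error 0.22, adjusted p = 0.000877, 3 of 3 libraries lower). In Hmgn2-/- mESCs it was not past the threshold (log2 FC −0.90, 95% interval −1.39 to −0.40, adjusted p = 0.0171, edgeR, 3 of 3 lower, range of adjusted p over all alternatives 0.00252 to 0.078). Without WT replicate 1 it was past it there, at −1.12. The log2 FC in Hmgn1-/-Hmgn2-/- mESCs was −0.71 (−1.14 to −0.28), not past the threshold. An annotated gene on the same strand, Gm49361, shares 42.4% of the exon bases of Lats2 and is not in the count table, so its counts are uncertain to that extent.

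Yap1 (chr9:7931999-8004638, minus strand) encodes the coactivator, and its TMM-scaled CPM was 191, 187 and 190.0 in WT and 204, 201 and 191 in Hmgn1-/- mESCs. Hmgn2-/- mESCs had 219.5, 194 and 177, and Hmgn1-/-Hmgn2-/- mESCs 209, 202 and 198. The WT libraries lay close together, the single knockouts overlapped them, and the double knockout libraries were all slightly above. Its log2 FC was 0.07 in Hmgn1-/- (95% interval −0.04 to 0.19), 0.07 in Hmgn2-/- (−0.12 to 0.26) and 0.11 in Hmgn1-/-Hmgn2-/- mESCs (0.00 to 0.22), none past the threshold. Without Hmgn2-/- replicate 1 the value in Hmgn2-/- mESCs was −0.02. The YAP protein and its phosphorylation were not measured. An antisense transcript, Gm20416, shares 1.25% of the exon bases of Yap1.

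Tead1, on chromosome 7, encodes a transcription factor that brings YAP to DNA and had a TMM-scaled CPM of 99.2, 102 and 102 in WT and 126, 114 and 103 in Hmgn1-/- mESCs. Levels were 143, 118 and 91.4 in Hmgn2-/- and 135, 119 and 105 in Hmgn1-/-Hmgn2-/- mESCs. The Hmgn1-/- and double knockout libraries were all above WT, and the Hmgn2-/- libraries spread on both sides of it. Its log2 FC was 0.18 (0.04 to 0.33), 0.23 (−0.06 to 0.52) and 0.25 (0.08 to 0.42) in Hmgn1-/-, Hmgn2-/- and Hmgn1-/-Hmgn2-/- mESCs, none past the threshold. Tead4, on chromosome 6, a TEAD factor of trophectoderm, had a TMM-scaled CPM of 21.7, 26.6 and 31.1 in WT and 22.3, 23.0 and 26.7 in Hmgn1-/- mESCs. The Hmgn2-/- libraries had 24.5, 24.5 and 26.7, and the Hmgn1-/-Hmgn2-/- libraries 24.8, 28.5 and 27.1. All groups overlapped. The log2 FC of Tead4 was −0.14 (−0.40 to 0.12), −0.06 (−0.34 to 0.22) and 0.02 (−0.23 to 0.27) in the same order, and all of these intervals hold 0. Its sign turned without WT replicate 3 in Hmgn1-/- (0.0002) and Hmgn2-/- mESCs (0.07). In the double knockout it turned without WT replicate 1 (−0.12) or double knockout replicate 2 (−0.02).

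**Figure D2:**
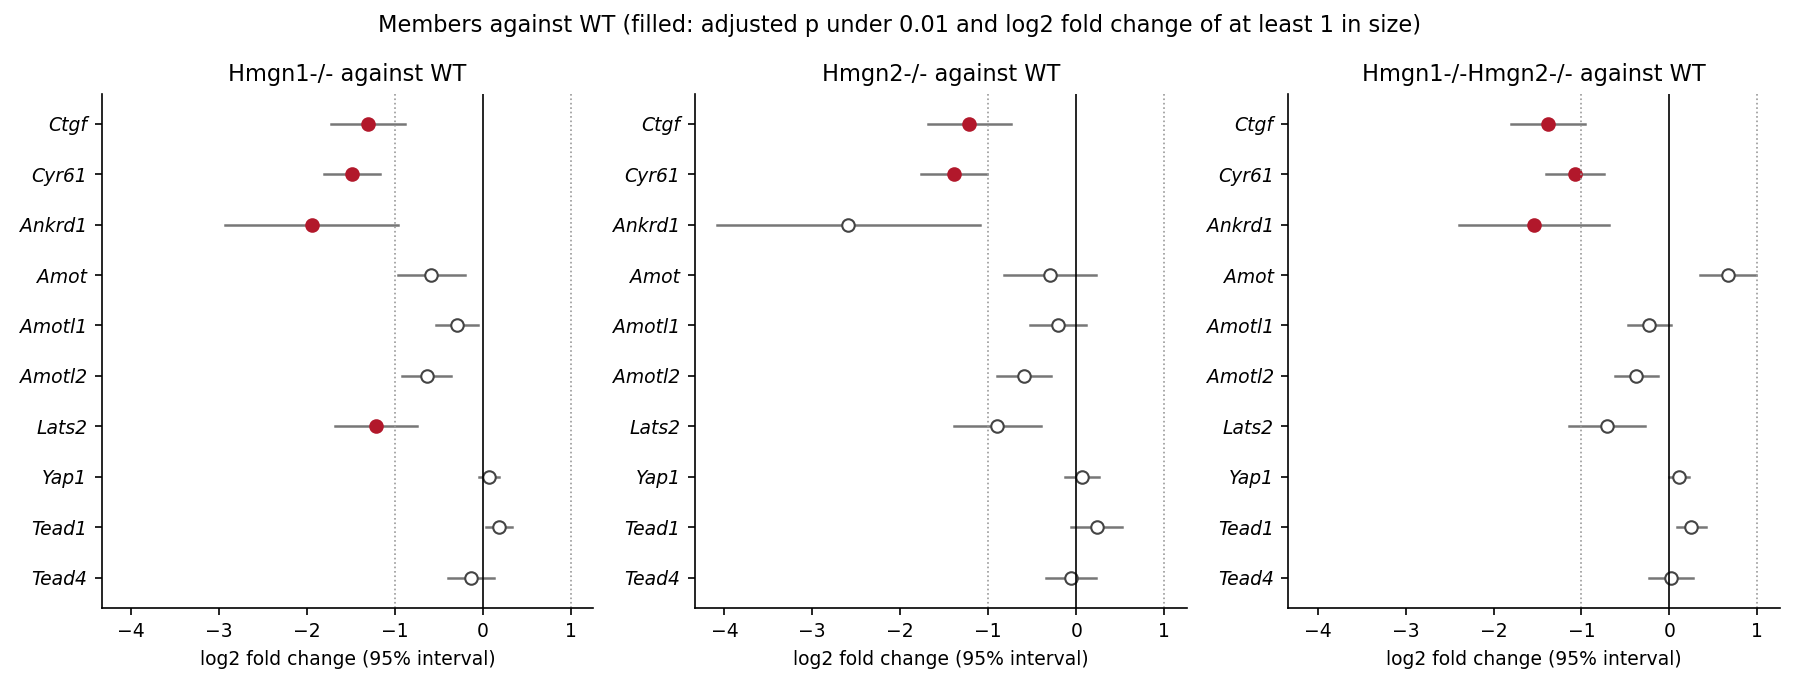
Log2 FC of each gene against WT with its 95% interval, in a panel per knockout; filled points are past the threshold and dotted lines mark the fold limit. Ctgf and Cyr61 are filled in each panel, with log2 FC from −1.49 to −1.08.

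Counted over the 10 genes, 4 were past the threshold in Hmgn1-/- mESCs, beside 5.98% of all 13917 genes tested. All 4 were lower (Ctgf, Cyr61, Ankrd1 and Lats2), beside 5.08% of all genes. By adjusted p alone there were 5 of the 10, beside 17.3% of all genes, and 7 did not overlap between the groups (6 lower, 1 higher), beside 42.0%. The median log2 FC of the 10 was −0.61, beside 0.00 over all genes tested. Of the 9 genes without Ankrd1, which passed the filter only through WT, 3 were past the threshold, and their median was −0.59. In Hmgn2-/- mESCs 2 of the 10 were past the threshold (Ctgf and Cyr61), beside 5.15% of 14047 genes, and 2 were past it and lower, beside 4.38%. By adjusted p alone there were also 2, beside 9.97%, and 5 did not overlap, all lower, beside 35.8%. Their median log2 FC was −0.45, beside 0.01, and without Ankrd1 2 of 9 were past the threshold with a median of −0.30. The count past the threshold was 1 without WT replicate 2, WT replicate 3 or Hmgn2-/- replicate 2.

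Of the 10 genes 3 were past the threshold in Hmgn1-/-Hmgn2-/- mESCs (Ctgf, Cyr61 and Ankrd1), beside 6.30% of 14128 genes, and 3 were past it and lower, beside 5.00%. By adjusted p alone there were 4, with Amot higher, beside 18.0%, and 7 did not overlap (4 lower, 3 higher), beside 42.4%. Their median log2 FC was −0.30, beside 0.00 over all genes, and without Ankrd1 2 of 9 were past the threshold with a median of −0.23. The count past the threshold was 1, Ctgf, without WT replicate 3, and 2 with replicate number as a blocking term. Summed over the 10 genes, levels were 534, 648 and 682 TMM-scaled CPM in WT and 505, 511 and 503 in Hmgn1-/- mESCs. Sums were 563, 527 and 464 in Hmgn2-/- and 559, 552 and 541 in Hmgn1-/-Hmgn2-/- mESCs. WT replicate 1 thus lay among the knockout libraries in this sum. It was the lowest WT library for all of the 10 genes but Amot and Yap1.

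Between the knockouts 9 genes were tested, since Ankrd1 had too few counts. In Hmgn2-/- against Hmgn1-/- mESCs 0 of 9 were past the threshold in edgeR, beside 0.176% of 13648 genes, with 0 at an unadjusted p under 0.05, beside 3.20% of all genes, and 0 called by DESeq2. Their log2 FC ran from −0.01 (Yap1) to 0.32 (Lats2). In Hmgn1-/-Hmgn2-/- against Hmgn1-/- mESCs 1 of 9, Amot, was past the threshold, beside 0.511% of 13710 genes. Amot rose in the edgeR test (log2 FC 1.25, standard error 0.14, adjusted p = 4.57e-05, 3 of 3 libraries higher), from 5.87 ± 0.953 to 14.0 ± 1.64 TMM-scaled CPM (SD, n = 3 each). At an unadjusted p under 0.05 there were 4, beside 9.53% of all genes, the others being Cyr61 (0.41, 95% interval 0.15 to 0.68), Amotl2 (0.26, 0.08 to 0.44) and Lats2 (0.50, 0.13 to 0.87). In Hmgn1-/-Hmgn2-/- against Hmgn2-/- mESCs, its parent line, 0 of 9 were past the threshold in edgeR, beside 0.0434% of 13816 genes, with 2 at an unadjusted p under 0.05, beside 4.44%, and 0 called by DESeq2. These 2 were Amot (0.97, 0.49 to 1.44) and Amotl2 (0.22, 0.03 to 0.42). The share of 0.0434% stands for 6 genes. Over all genes that count was 32 with replicate number as a blocking term, 29 with DESeq2 and 1 to 12 with 1 library left out.

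A departure from additivity was tested as (Hmgn1-/-Hmgn2-/- minus Hmgn2-/-) minus (Hmgn1-/- minus WT) on the log2 scale, over all 12 libraries. Of the 10 genes 3 were past the threshold, Cyr61, Amot and Lats2, all above 0, beside 3.48% of 14323 genes. The median departure was 1.01, or 0.86 without Ankrd1, beside −0.01 over all genes. For Cyr61 the mean TMM-scaled CPM was 55.3 ± 13.0 in WT, 19.6 ± 2.64 in Hmgn1-/-, 21.0 ± 3.25 in Hmgn2-/- and 26.1 ± 4.64 in Hmgn1-/-Hmgn2-/- mESCs (SD, n = 3 each). Its departure was 1.82 (standard error 0.24, adjusted p = 0.000157, edgeR). That of Amot was 1.56 (0.30, adjusted p = 0.00304, edgeR, range over libraries left out 0.000355 to 0.0115). That of Lats2 was 1.40 (0.28, adjusted p = 0.00376, edgeR, range 0.00019 to 0.0132). Cyr61 and Lats2 were less low in the double knockout than the single effects add up to, while the mean of Amot was below WT in each single knockout and above it in the double knockout. A gene that falls alike in every knockout has a departure above 0 of about the size of that fall. The departures of Cyr61 and Lats2 are therefore not separate from their falls against the same WT libraries. Between knockouts neither gene was past the threshold.

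The departures of the other genes were not past the threshold. They were 1.15 for Ctgf (95% interval 0.57 to 1.73), 3.01 for Ankrd1 (1.03 to 4.98), 0.86 for Amotl2 (0.47 to 1.26) and 0.28 for Amotl1 (−0.09 to 0.65). For Yap1, Tead1 and Tead4 they were −0.02 (−0.23 to 0.18), −0.16 (−0.54 to 0.22) and 0.23 (−0.12 to 0.58). Without Hmgn2-/- replicate 1 the sign turned for Yap1 (0.0594) and Tead1 (0.00691). Cyr61 was past the threshold whichever library was left out (1.66 to 2.00). Amot was not without WT replicate 3 (1.35) or Hmgn2-/- replicate 2 (1.52). Lats2 was not without WT replicate 2 (1.26), WT replicate 3 (1.31), Hmgn1-/- replicate 1 (1.43), Hmgn1-/- replicate 3 (1.33), double knockout replicate 2 (1.41) or double knockout replicate 3 (1.39). Without WT replicate 1, Ctgf (1.42) and Amotl2 (1.03) were past it as well, 5 genes in all, and without WT replicate 3 Cyr61 was the 1 gene past it. Ctgf was also past it with upper quartile scaling (1.16), with no filter (1.14) and with replicate number as a blocking term (1.10), and Ankrd1 without Hmgn2-/- replicate 3 (4.30). The departure of Ankrd1 ran from 2.34 to 4.30 with 1 library left out.

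**Figure D3:**
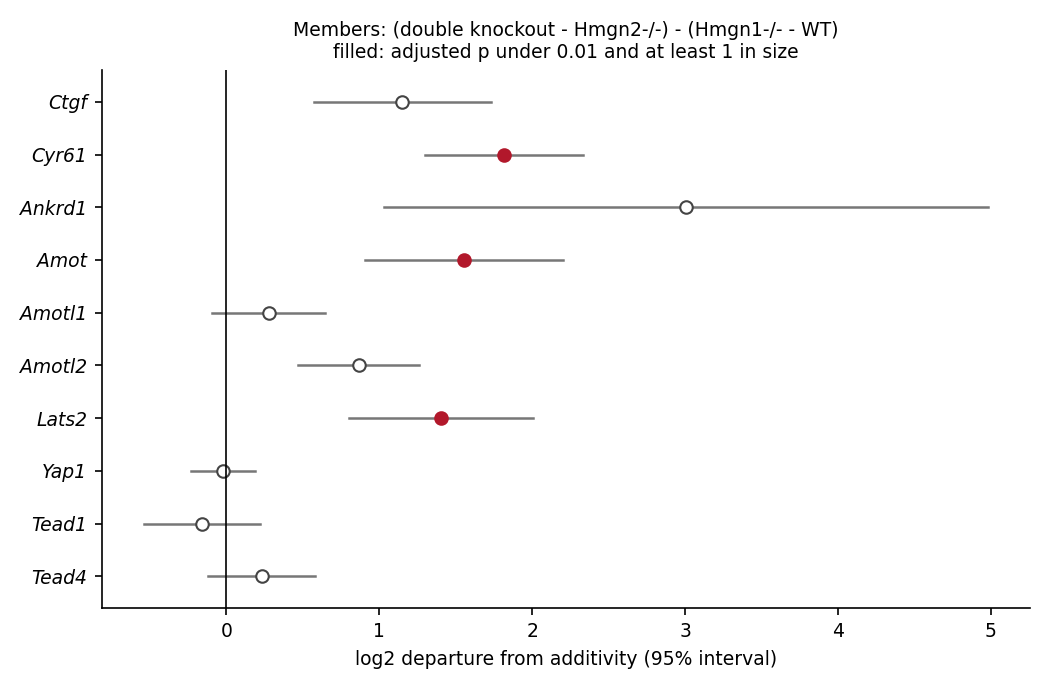
Departure from additivity of each gene on the log2 scale with its 95% interval, from the fit of all 12 libraries; filled points are past the threshold. Cyr61 at 1.82, Amot at 1.56 and Lats2 at 1.40 are filled.

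Of 30 further Hippo pathway genes, among them the kinases Stk3, Stk4 and Lats1, the coactivator Wwtr1 (TAZ) and the TEAD factors Tead2 and Tead3, 27 were tested. In each comparison with WT 1 of the 27 was past the threshold, Vgll3, which was lower, beside 5.98%, 5.15% and 6.30% of all genes in Hmgn1-/-, Hmgn2-/- and Hmgn1-/-Hmgn2-/- mESCs. Vgll3, a transcriptional cofactor that binds TEAD, had a TMM-scaled CPM of 3.85, 7.41 and 7.74 in WT and 2.11, 1.67 and 2.80 in Hmgn1-/- mESCs. It was 1.34, 2.27 and 2.02 in Hmgn2-/- and 1.54, 2.03 and 2.50 in Hmgn1-/-Hmgn2-/- mESCs. All knockout libraries were below all WT libraries. Its log2 FC was −1.51 in Hmgn1-/- mESCs in the edgeR test (standard error 0.27, adjusted p = 0.000815, 3 of 3 libraries lower). It was −1.73 in Hmgn2-/- mESCs (0.30, adjusted p = 0.00205, edgeR, range over libraries left out 0.000351 to 0.0117) and −1.63 in Hmgn1-/-Hmgn2-/- mESCs. The call in Hmgn2-/- mESCs was lost without WT replicate 2 (−1.62) or WT replicate 3 (−1.55). The median log2 FC of the list was −0.03, −0.06 and −0.01 in Hmgn1-/-, Hmgn2-/- and Hmgn1-/-Hmgn2-/- mESCs, beside 0.00, 0.01 and 0.00 over all genes. The departure of Vgll3 from additivity was 1.62 (95% interval 0.71 to 2.52), not past the threshold. It was past it with DESeq2 (1.62), with no filter (1.61), without WT replicate 1 (1.89) and with replicate number as a blocking term (1.56).

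Rassf1 and Dchs1 are named from that list after their values were seen, since they moved its counts. Rassf1, a scaffold that binds the MST kinases, had a TMM-scaled CPM of 24.0, 23.1 and 26.7 in WT and 27.5, 25.9 and 24.5 in Hmgn1-/- mESCs. With Hmgn2 edited it was 12.4, 11.5 and 15.2, and with both genes edited 12.9, 11.5 and 12.6. Every library with an edited Hmgn2 was below every library without. Rassf1 was at 52.8% of WT in Hmgn2-/- and 50.1% in Hmgn1-/-Hmgn2-/- mESCs, just inside the fold limit, and at 106% in Hmgn1-/- mESCs. It passed the threshold in Hmgn2-/- mESCs without Hmgn2-/- replicate 3 (−1.04). In the double knockout it did so in a fit of all 12 libraries and without WT replicate 1, WT replicate 2, or double knockout replicate 1 or 3, with log2 FC down to −1.04. It was past the threshold in Hmgn1-/-Hmgn2-/- against Hmgn1-/- mESCs in the edgeR test (log2 FC −1.07, adjusted p = 2.66e-06, 3 of 3 libraries lower). It was past it in Hmgn2-/- against Hmgn1-/- mESCs too. That call was lost with any library left out (log2 FC −1.04 to −0.92) except Hmgn2-/- replicate 3 (−1.12). Dchs1, a protocadherin upstream of the pathway, had a log2 FC of 1.02 in the double knockout (95% interval 0.39 to 1.65), not past the threshold, and passed it with no filter (1.02), with replicate number as a blocking term (1.04) and without WT replicate 1 (1.25).

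The count of this list past the threshold in Hmgn2-/- mESCs was thus 0 without WT replicate 2 or WT replicate 3, and 2 without Hmgn2-/- replicate 3. In the double knockout it was 3 without WT replicate 1, and 2 without WT replicate 2, double knockout replicate 1 or double knockout replicate 3. With replicate number as a blocking term it was 2 there, 1 lower and 1 higher. In Hmgn2-/- against Hmgn1-/- mESCs 1 of 27, Rassf1, was past the threshold, beside 0.176% of all genes. This count was 0 with any library left out except Hmgn2-/- replicate 3. Rassf1 was also the 1 of 27 past it in Hmgn1-/-Hmgn2-/- against Hmgn1-/- mESCs, beside 0.511% of all genes.

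A second list held 17 further genes used as a signature of YAP and TAZ activity. In Hmgn1-/- mESCs 6 of 14 tested were past the threshold and in Hmgn2-/- mESCs 5 of 14, all lower, and in Hmgn1-/-Hmgn2-/- mESCs 6 of 15, with 5 lower and 1 higher. Over all genes 5.98%, 5.15% and 6.30% were past it, and 5.08%, 4.38% and 5.00% were past it and lower. Their median log2 FC was −0.66, −0.62 and −0.46, beside 0.00, 0.01 and 0.00 over all genes. Tgfb2 passed the filter on low counts only through WT, and Foxf2 only through the double knockout, each the group where it was high. Without these, 5, 4 and 4 of 13 were past the threshold, all lower, and the median was −0.53, −0.59 and −0.46. Igfbp3, which binds insulin-like growth factors, had a TMM-scaled CPM of 36.3, 49.7 and 57.1 in WT and 15.4, 16.9 and 15.5 in Hmgn1-/- mESCs. Hmgn2-/- mESCs had 18.9, 19.1 and 17.6, and Hmgn1-/-Hmgn2-/- mESCs 16.8, 16.9 and 16.7. Its WT libraries were all above its knockout libraries. Myof, a membrane repair protein, had a TMM-scaled CPM of 37.2, 49.8 and 52.8 in WT and 16.2, 14.5 and 19.0 in Hmgn1-/- mESCs. Levels were 15.8, 17.5 and 16.9 in Hmgn2-/- and 17.0, 22.1 and 20.0 in Hmgn1-/-Hmgn2-/- mESCs. Here too WT and knockout libraries did not overlap.

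In the order Hmgn1-/-, Hmgn2-/- and Hmgn1-/-Hmgn2-/-, the log2 FC against WT was −1.48, −1.47 and −1.24 for Myof and −1.58, −1.35 and −1.50 for Igfbp3. It was −1.66, −1.33 and −1.75 for the receptor tyrosine kinase Axl, −1.28, −1.54 and −1.32 for the ectoenzyme Nt5e and −2.45, −2.85 and −3.05 for the growth factor Tgfb2. All 5 were lower in every knockout library and past the threshold in each comparison, and Tgfb2 was so with no filter too (−2.45, −2.85 and −3.05). The call of Axl in Hmgn2-/- mESCs was lost without Hmgn2-/- replicate 2 (−1.22). F3, the coagulation receptor tissue factor, was past the threshold in Hmgn1-/- mESCs alone (−1.03, −0.71 and −0.79), and there it came under the fold limit without WT replicate 3 (−0.95) or Hmgn1-/- replicate 2 (−0.91). Foxf2, a forkhead factor, was the gene that was higher, with a TMM-scaled CPM of 0.0313, 0.113 and 0.174 in WT and 0.384, 0.191 and 0.367 in Hmgn1-/- mESCs. The Hmgn2-/- libraries had 0.269, 0.681 and 0.476, and the Hmgn1-/-Hmgn2-/- libraries 0.896, 1.04 and 1.21. The double knockout libraries, at 23 to 32 counts, were above all others, and a WT library had at most 5. Its log2 FC there was 3.30 in the edgeR test (standard error 0.48, adjusted p = 0.000156, 3 of 3 libraries higher), 3.30 with no filter, past the threshold as well, and 3.99 without WT replicate 3. In the other comparisons with WT it had too few counts to be tested.

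In Hmgn1-/-Hmgn2-/- against Hmgn1-/- mESCs 0 of 14 signature genes were past the threshold in edgeR, beside 0.511% of all genes, with 2 at an unadjusted p under 0.05, beside 9.53%, and 0 called by DESeq2. Foxf2, again in the test only through the double knockout, passed it with no filter (1.70) and with replicate number as a blocking term (1.69). Departures from additivity were past the threshold for 5 of the 15 tested, beside 3.48% of all genes: Myof (1.72), Axl (1.26), Igfbp3 (1.44), Nt5e (1.51) and Tgfb2 (2.26). All 5 genes fell to a like extent in every knockout, so these departures are not separate from those falls. With 1 library left out Myof and Igfbp3 kept the call in 12 of 12 fits, Axl in 2 (1.03 to 1.43), Nt5e in 5 (1.36 to 1.80) and Tgfb2 in 1 (2.05 to 2.45). The departure of Tgfb2 also lost its call with no filter (2.25), and without the genes that passed the filter through a single group 4 of 13 were past the threshold. F3 gained a call in 5 fits with 1 library left out (1.01 to 1.09). The count was 5 without WT replicate 1 or Hmgn2-/- replicate 3, 2 without WT replicate 3, Hmgn1-/- replicate 3 or Hmgn2-/- replicate 1, and 3 without any other library.

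**Figure D4:**
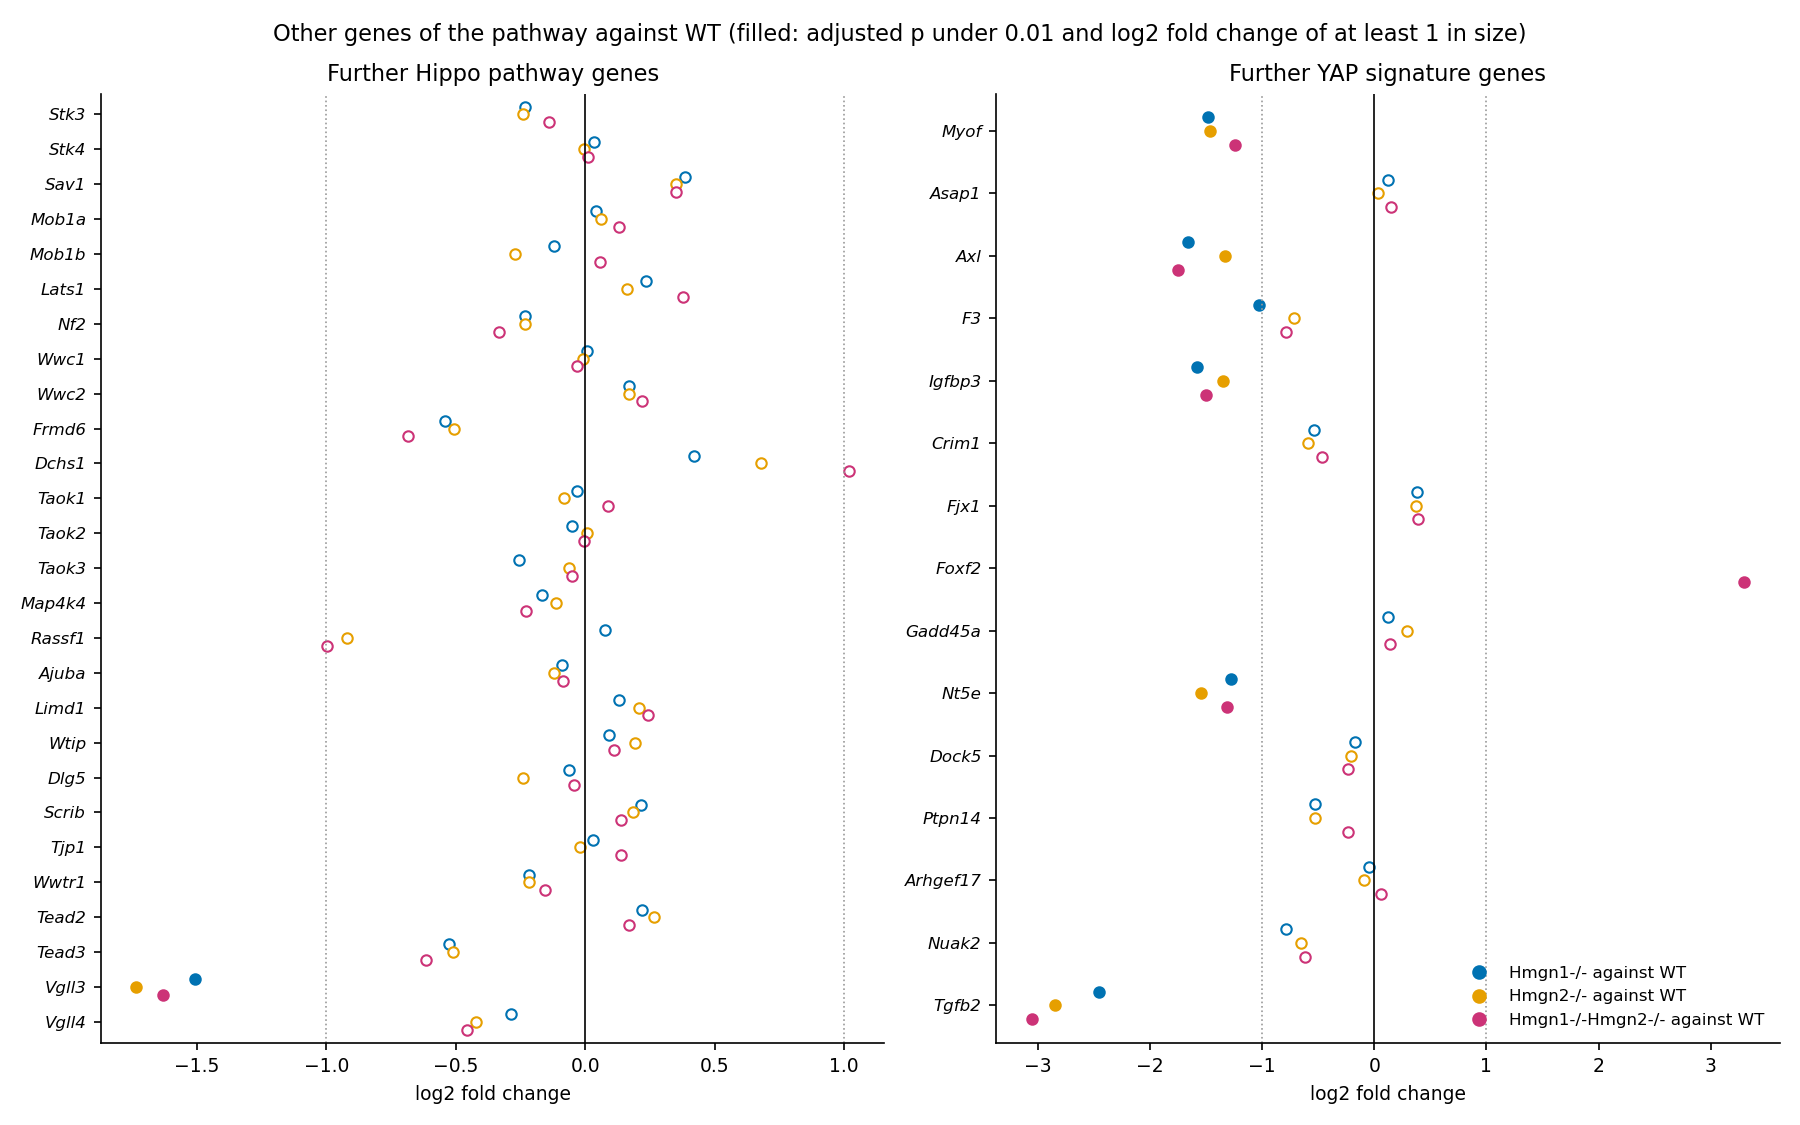
Log2 FC against WT of the further Hippo pathway genes (left) and YAP signature genes (right) that were tested, with a colour per knockout; filled points are past the threshold. Vgll3 lies at −1.73 to −1.51, and Tgfb2 at −3.05 to −2.45.

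The genes whose levels ran most like those of the targets over the 12 libraries were found by the root mean square difference of centred log2 TMM-scaled CPM. For Ctgf, among 11554 candidates, they were Ptk2b (0.141), Grhl2 (0.154), M1ap (0.158), C330046G13Rik (0.167) and Fam107b (0.170). For Cyr61 they were Clu (0.136), Was (0.161), M1ap (0.162), Anxa5 (0.169) and Sohlh2 (0.170). M1ap stood in both sets, at a mean TMM-scaled CPM of 10.8 in WT and 4.05, 4.22 and 4.42 in Hmgn1-/-, Hmgn2-/- and Hmgn1-/-Hmgn2-/- mESCs (n = 3 each). For Ankrd1, among 11555 candidates, the differences were larger: Adam8 (0.523), Id3 (0.559), Xaf1 (0.560), Emp1 (0.567) and Wnt6 (0.578). These lists describe likeness of levels only.

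Of 14 genes of actin and of serum response factor (SRF), 13 were tested against WT. Past the threshold were 6 in Hmgn1-/-, 5 in Hmgn2-/- and 6 in Hmgn1-/-Hmgn2-/- mESCs, all lower, beside 5.08%, 4.38% and 5.00% of all genes past it and lower. The median log2 FC was −0.75, −0.67 and −0.89, beside 0.00, 0.01 and 0.00 over all genes. In that order the log2 FC was −3.14, −2.91 and −4.96 for Acta2, −2.29, −1.88 and −2.69 for Tagln and −2.92, −2.60 and −3.35 for Thbs1. It was −1.59, −1.30 and −1.47 for Cnn1 and −1.26, −1.48 and −1.85 for Myl9, and these 5 were past the threshold in all 3 comparisons. In the double knockout Acta2 passed the filter on low counts only through WT, and 5 of 12 were past the threshold without it, with a median of −0.77. The list summed to 1626, 1841 and 1847 TMM-scaled CPM in WT and 1191, 1208 and 1277 in Hmgn1-/- mESCs. It was 1196, 1248 and 1156 in Hmgn2-/- and 1169, 1187 and 1193 in Hmgn1-/-Hmgn2-/- mESCs. All WT libraries were above all knockout libraries, and Flna was the most abundant gene, at 46.9% of the sum. Of 12 immediate early genes, 1 of 12 of the genes tested (Jun), 2 of 11 (Fos and Egr1) and 0 of 11 were past the threshold in Hmgn1-/-, Hmgn2-/- and Hmgn1-/-Hmgn2-/- mESCs, these being lower and named after their values were seen. Over all genes the shares were 5.98%, 5.15% and 6.30%. With replicate number as a blocking term the call of Fos was lost (−1.05), which left 1 in Hmgn2-/- mESCs. In the double knockout this 0 is edgeR's, with 9 at an unadjusted p under 0.05, beside 38.9% of all genes, and 0 called by DESeq2. Without Fosb, which passed the filter on low counts there only through WT, 8 of 10 were under that p in edgeR.

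Immediate early genes summed to 537, 524 and 560.3 TMM-scaled CPM in WT and 621, 569.5 and 616 in Hmgn1-/- mESCs. With Hmgn2 edited it was 649, 601 and 697, and with both genes edited 635, 592 and 639.7. Every knockout library was above every WT library in this sum, of which Ier2 held 51.5%. Most genes of the list lay the other way, past the threshold or not, with 8 of 12, 7 of 11 and 7 of 11 below WT. The median log2 FC was −0.54, −0.31 and −0.31, beside 0.00, 0.01 and 0.00 over all genes. By adjusted p alone in edgeR 4, 4 and 2 were lower and 2, 3 and 3 higher, with 17.3%, 9.97% and 18.0% of all genes called. Egr2 in Hmgn1-/- mESCs passed the filter on low counts only through the knockout, and Fosb in the double knockout only through WT. Each was high in that group. Without them the median was −0.57 over 11 genes in Hmgn1-/- and −0.29 over 10 in Hmgn1-/-Hmgn2-/- mESCs. The part of the actin, SRF and immediate early genes in the levels of the YAP targets was not tested.

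Markers of cell types were summed the same way, and in bulk RNA fewer cells of a type and less RNA per cell cannot be told apart. Beyond the most abundant gene, the markers named here were chosen after their values were seen. Of 8 mESC markers 0 were past the threshold in each knockout in edgeR, with 4, 4 and 5 at an unadjusted p under 0.05, beside 38.7%, 31.0% and 38.9% of all genes, and 0, 0 and 0 called by DESeq2. They summed to 6099, 6084 and 6233 TMM-scaled CPM in WT and 6075, 6199 and 6524 in Hmgn1-/- mESCs. Hmgn2-/- mESCs had 5609, 6082 and 6776, and Hmgn1-/-Hmgn2-/- mESCs 5604, 6122 and 6253. The groups overlapped in this sum, and Pou5f1 was the most abundant. Single markers moved in both directions under the fold limit, with 3, 2 and 3 of 8 called by adjusted p alone in edgeR and 5, 4 and 6 without overlap with WT. Over all genes these shares were 17.3%, 9.97% and 18.0%, and 42.0%, 35.8% and 42.4%. In Hmgn1-/- mESCs Klf4 was at 190.4%, Esrrb at 139% and Nanog at 80.2% of WT. Fibroblast markers summed to 27.8, 23.5 and 29.0 TMM-scaled CPM in WT and 11.1, 10.6 and 11.3 in Hmgn1-/- mESCs. Levels were 11.5, 10.1 and 12.2 in Hmgn2-/- and 10.8, 13.6 and 12.2 in Hmgn1-/-Hmgn2-/- mESCs. All WT libraries were above all knockout libraries, and Thy1 was the most abundant. Of these 9 genes 5 were tested, and Col1a1, Col1a2 and Thy1 were past the threshold and lower in each knockout, beside 5.08%, 4.38% and 5.00% of all genes. Col1a2 passed the filter only through WT, and 2 of 4 were past the threshold in each knockout without it. Lum had 0 counts in every library, and Dcn and Postn at most 4.

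Primitive endoderm markers summed to 142, 182 and 186 TMM-scaled CPM in WT and 435, 364 and 367 in Hmgn1-/- mESCs. The Hmgn2-/- libraries had 502, 459 and 332, and the Hmgn1-/-Hmgn2-/- libraries 931, 918 and 848. The double knockout libraries were above all others, WT was the lowest, Lama1 was the most abundant gene and none was at 0. Of the 9 genes 6, 7 and 9 were past the threshold and higher in Hmgn1-/-, Hmgn2-/- and Hmgn1-/-Hmgn2-/- mESCs, beside 0.898%, 0.776% and 1.30% of all genes. Without Sox17 in each knockout and Foxa2 in Hmgn1-/- mESCs, which passed the filter only through the knockout, there were 5 of 7, 6 of 8 and 8 of 8. Trophoblast markers summed to 339, 390.5 and 531 TMM-scaled CPM in WT and 84.1, 81.9 and 112 in Hmgn1-/- mESCs. It was 115, 118 and 156 in Hmgn2-/- and 95.2, 109 and 122 in Hmgn1-/-Hmgn2-/- mESCs. All knockout libraries were below all WT libraries, Krt8 was the most abundant gene, at 46.1% of the sum, and Elf5 was at 0 in 2 libraries. Of 9 genes 8 were tested, and Gata3, Hand1, Krt7, Krt8 and Krt18 were past the threshold and lower in each knockout, while Cdx2, Eomes and Tfap2c were not. Of all genes 5.08%, 4.38% and 5.00% were past it and lower. In Hmgn1-/- and Hmgn2-/- mESCs the log2 FC was −0.52 and 0.03 for Cdx2, −0.65 and −0.46 for Eomes and 0.02 and 0.12 for Tfap2c. The sum thus does not describe every marker of the list. In the single knockouts Gata3 passed the filter only through WT, and 4 of 7 were past the threshold there without it. The part of these cell types in the levels of the YAP targets was not tested.

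**Figure D5:**
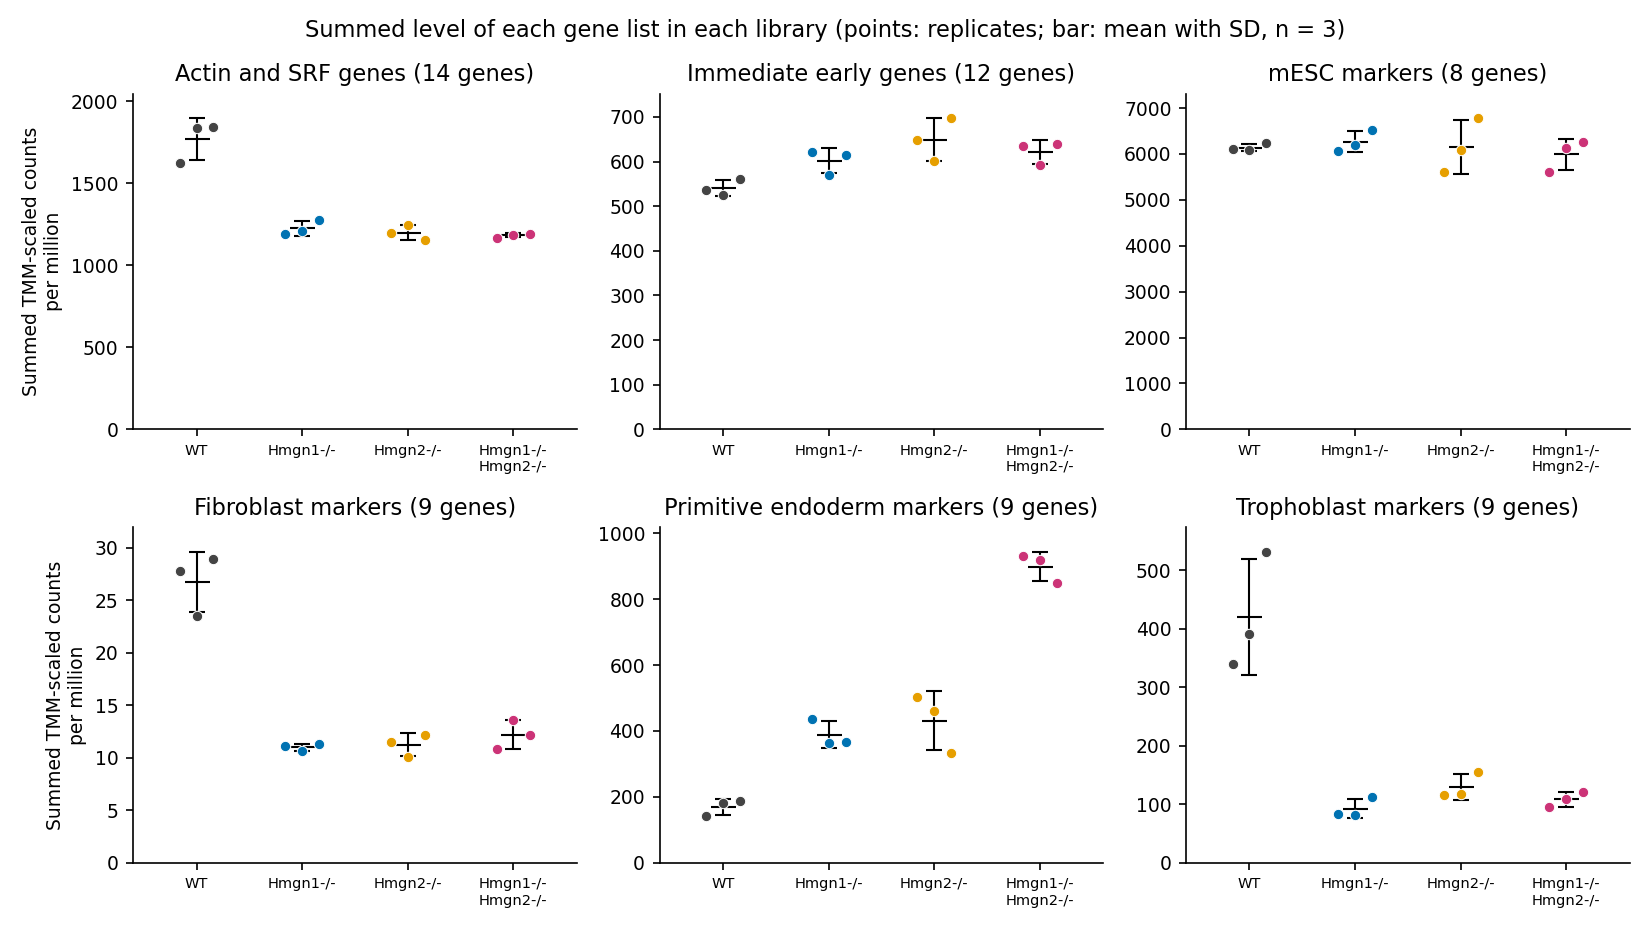
Summed TMM-scaled CPM of each gene list in every library; points are replicates, and bars are the mean with its SD. The sum of actin and SRF genes is 1626 or more in WT libraries and 1277 or less in knockout libraries.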

How the data were processed

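Bulk RNA-Seq reads of 12 libraries were aligned by the authors to mm10 with STAR, and the deposited files hold raw counts, whole numbers of reads per gene. The counting program, its annotation and its use of strand are not stated. From these counts, levels were computed with TMM factors of edgeR 4.0.16 in R 4.3.3. Each comparison was a quasi-likelihood fit of its 6 libraries after edgeR's default filter on low counts, with p adjusted by Benjamini and Hochberg's method, and the departure from additivity was a fit of 12. Standard errors were derived from the F statistic. DESeq2 1.42.0, other scaling factors, no filter, a fit of 12 libraries, a term for replicate number and leaving out each library were the alternatives. The code was tested on simulated data.

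The genes named are the 10 listed symbols, Hmgn1 and Hmgn2, the genes of the Hippo and YAP signature lists past the threshold against WT, actin, SRF and immediate early genes past it in all 3 such comparisons, the most abundant gene of each list, and the 5 genes most like each target; others are marked in the text as picked with their values in view. The members and lists were chosen with earlier results of these data known. Replicate numbers in the labels were checked as pairs: in 4 of 6 comparisons every same-number correlation was over 0.1 (0.133 to 0.590), so the pairing rests on those numbers and on this correlation. The main fits were not paired, and a term for replicate number entered only as an alternative. Positions, exon lengths and upstream bases come from RefSeq and GENCODE vM21.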

Additional observations from a re-analysis of the deposited data

Results flagged for a closer look

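A test of the difference between groups flagged 4 results. The log2 departure from additivity was past the threshold for Cyr61 (1.82), Amot (1.56) and Lats2 (1.40), in the edgeR test over all 12 libraries. With 1 library left out the call was kept in 12, 10 and 6 of 12 fits. Cyr61 and Lats2 were lower in every knockout, so their departures are not separate from those falls against WT. Each knockout line is 1 clone, so the link of the departure to the loss of either protein was not tested. Amot also differed between the double knockout and Hmgn1-/- mESCs (log2 FC 1.25). Against Hmgn2-/- mESCs, the parent line, its log2 FC was 0.97 and not past the threshold. There its adjusted p was 0.199 in the edgeR test, with a range over all alternatives of 0.000698 to 0.738. The cause of these differences was not tested.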

How the results depend on the processing

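Of 390 log2 FC of the 10 genes against WT under the alternatives, 360 kept direction and side of the threshold, 19 lost a call, 6 gained a call and 5 reversed in sign. Between knockouts 333 of 351 kept both and 18 reversed. With 1 library left out, the genes past the threshold ranged from 1 to 3 of the 10 in Hmgn2-/- against WT, 1 to 3 in Hmgn1-/-Hmgn2-/- against WT and 1 to 5 for the departure from additivity, which was 5 at an adjusted p under 0.05. The further Hippo genes ranged from 0 to 2 in Hmgn2-/- against WT, 1 to 3 in Hmgn1-/-Hmgn2-/- against WT and 0 to 1 in Hmgn2-/- against Hmgn1-/- mESCs. In Hmgn1-/-Hmgn2-/- against WT they were 2 with no filter, with the fit of 12 libraries, with the replicate block and at an adjusted p under 0.05. The YAP signature in Hmgn1-/-Hmgn2-/- against Hmgn1-/- mESCs was 1 with no filter, with the replicate block and at an adjusted p under 0.05.

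Values near 0 that changed sign had these ranges with 1 library left out. Against WT they were Tead4 −0.28 to 0.000197 in Hmgn1-/-, Yap1 −0.0213 to 0.14 and Tead4 −0.20 to 0.0714 in Hmgn2-/- and Tead4 −0.12 to 0.15 in Hmgn1-/-Hmgn2-/- mESCs. In Hmgn2-/- against Hmgn1-/- mESCs they were Cyr61 −0.0327 to 0.20, Amot −0.00795 to 0.49, Amotl2 −0.0704 to 0.11, Yap1 −0.0959 to 0.0586 and Tead1 −0.12 to 0.19. In Hmgn1-/-Hmgn2-/- mESCs they were Ctgf −0.15 to 0.00912 and Tead1 −0.0307 to 0.15 against Hmgn1-/-, and Amotl1 −0.13 to 0.0406, Yap1 −0.0269 to 0.13 and Tead1 −0.13 to 0.19 against Hmgn2-/- mESCs. Departures from additivity that changed sign were Yap1 −0.10 to 0.0594 and Tead1 −0.31 to 0.00691. The cause was not tested.

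With the replicate block, the departure from additivity was past the threshold for 4 of the 10 genes, Ctgf being gained (1.10), and Hmgn1-/-Hmgn2-/- against WT for 2, Ctgf and Cyr61, Ankrd1 being lost (−1.50). Dchs1, Foxf2 and the departure of Vgll3 (1.56) gained a call with it, Fos lost its call in Hmgn2-/- mESCs, and the block changed no other call that the report gives. Low counts limit Ankrd1.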
